A study of Mus musculus with 8 samples.

Results

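The genes described here encode 10 receptors and bridging molecules through which macrophages (Mϕ) take up modified lipoproteins, bacteria and dying cells. They are the scavenger receptors Msr1, Marco, Scarb1, Scarf1, Olr1 and Lrp1, the phosphatidylserine receptors Stab1, Timd4 and Adgrb1, and the bridging molecule Mfge8. They were chosen by name, by matching the mouse identifiers in the expression table to GENCODE gene symbols, and all 10 were found among the 55359 genes listed. All 10 also passed the filter on low values, a mean of at least 10 normalized counts over the 8 samples, which left 16309 genes for testing. Timd4 passed it only through its stimulated samples, since its unstimulated values were all below 10.

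Total RNA was sequenced from bone marrow-derived Mϕ of C57BL/6 wildtype mice, differentiated with M-CSF and GM-CSF and isolated as CD45+ cells, in 4 groups with 2 samples each. Ctrl Mϕ were untreated naïve cells. LPS Mϕ were naïve cells given LPS (100 ng/mL) together with IFNγ (100 U/mL) during 6 h. Eff Mϕ had been fed apoptotic NIH-3T3 fibroblasts, 5 for each Mϕ, for 16 h with 10 nM of a dimerizer present, and LPSEff Mϕ received the same apoptotic cells and then LPS/IFNγ. The NIH-3T3 cells were an engineered line in which the dimerizer activates a caspase-8 domain. Marrow came from adult mice of both sexes, and which animals gave which sample is not given in the sources used here, nor whether Ctrl and LPS cultures were exposed to the dimerizer. The p-values below therefore measure the spread between these samples, which may be technical. The question was how LPS/IFNγ, efferocytosis and their combination altered the mRNA of these genes.

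Scavenger receptors are surface proteins that bind negatively charged ligands such as oxidized lipoproteins, bacterial wall components and the membranes of dying cells. A dying cell moves phosphatidylserine to its outer membrane leaflet, where Mϕ recognize it either directly, through receptors of the TIM, stabilin and adhesion GPCR families, or through secreted bridging molecules that link it to integrins or receptor tyrosine kinases. Uptake of apoptotic cells by this route, efferocytosis, takes part in the resolution of inflammation.

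The sequenced libraries held 3481288 to 12020918 reads on genes, so that 3 reads, taken here as the floor, corresponded to 1.73 to 5.71 normalized counts. This limit covers counting error only. Macrophage markers (11 genes) summed to 109160 to 164247 normalized counts per sample. Lyz2 alone had 54327 to 103975 of these, and Cd14 went from 1809 and 2056 in Ctrl to 23118 and 12722 in LPS. All 6 genes of a short list of known LPS/IFNγ targets were higher in both stimulated groups. Fibroblast markers, a list of 24 genes of which 22 were tested, summed to 716 and 746 normalized counts in Ctrl, to 4863 and 2564 in LPS, to 2941 and 6151 in Eff, and to 9319 and 8627 in LPSEff. Lox was the largest part of both LPS sums, at 3620 and 1335. Its values were 368 and 165 in Ctrl, 131 and 425 in Eff, and 1366 and 1084 in LPSEff. None of the 24 was at 0 in both samples of a group, and 5 had at most 3 reads in both Ctrl samples. Neutrophil markers summed to 740 to 2702 and dendritic cell markers to 1312 to 16025, whereas B and T cell markers summed to at most 19.0 and 9.05 in any sample. What part cells or RNA of other types had in the values below was not tested. Of the tested markers, 4 of 22 for fibroblasts, 3 of 7 for neutrophils, 2 of 4 for dendritic cells and 3 of 11 for macrophages were called higher in LPS vs Ctrl by limma, against 12.4% of all tested genes, and none lower. In LPSEff vs Eff the counts were 2, 2, 1 and 4, against 10.7% of all tested genes, and 1 macrophage marker was called lower. In such bulk samples, fewer cells of a type and less RNA per cell cannot be told apart.

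LPS/IFNγ split the scavenger receptors in both naïve and efferocytic Mϕ. Marco, Olr1 and Scarf1 rose and Scarb1 fell in both, and Msr1 fell in naïve Mϕ. In naïve Mϕ (LPS vs Ctrl), 3 members were called higher and 2 lower at a Benjamini-Hochberg adjusted p under 0.05 (limma on log2(normalized count + 1)), which is 5 of 10 members, against 24% of all tested genes (12.4% higher and 11.6% lower). In efferocytic Mϕ (LPSEff vs Eff), 4 of 10 were called, 3 higher and 1 lower, against 19.7% of all tested genes (10.7% higher and 8.95% lower). The median log2 fold change of the members was 1.11 in naïve and 0.84 in efferocytic Mϕ, beside -0.01 and 0.01 over all tested genes. The samples of both groups did not overlap for 7 members in LPS vs Ctrl and for 6 in LPSEff vs Eff, against 59.3% and 59.9% of all tested genes.

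**Figure D1:**
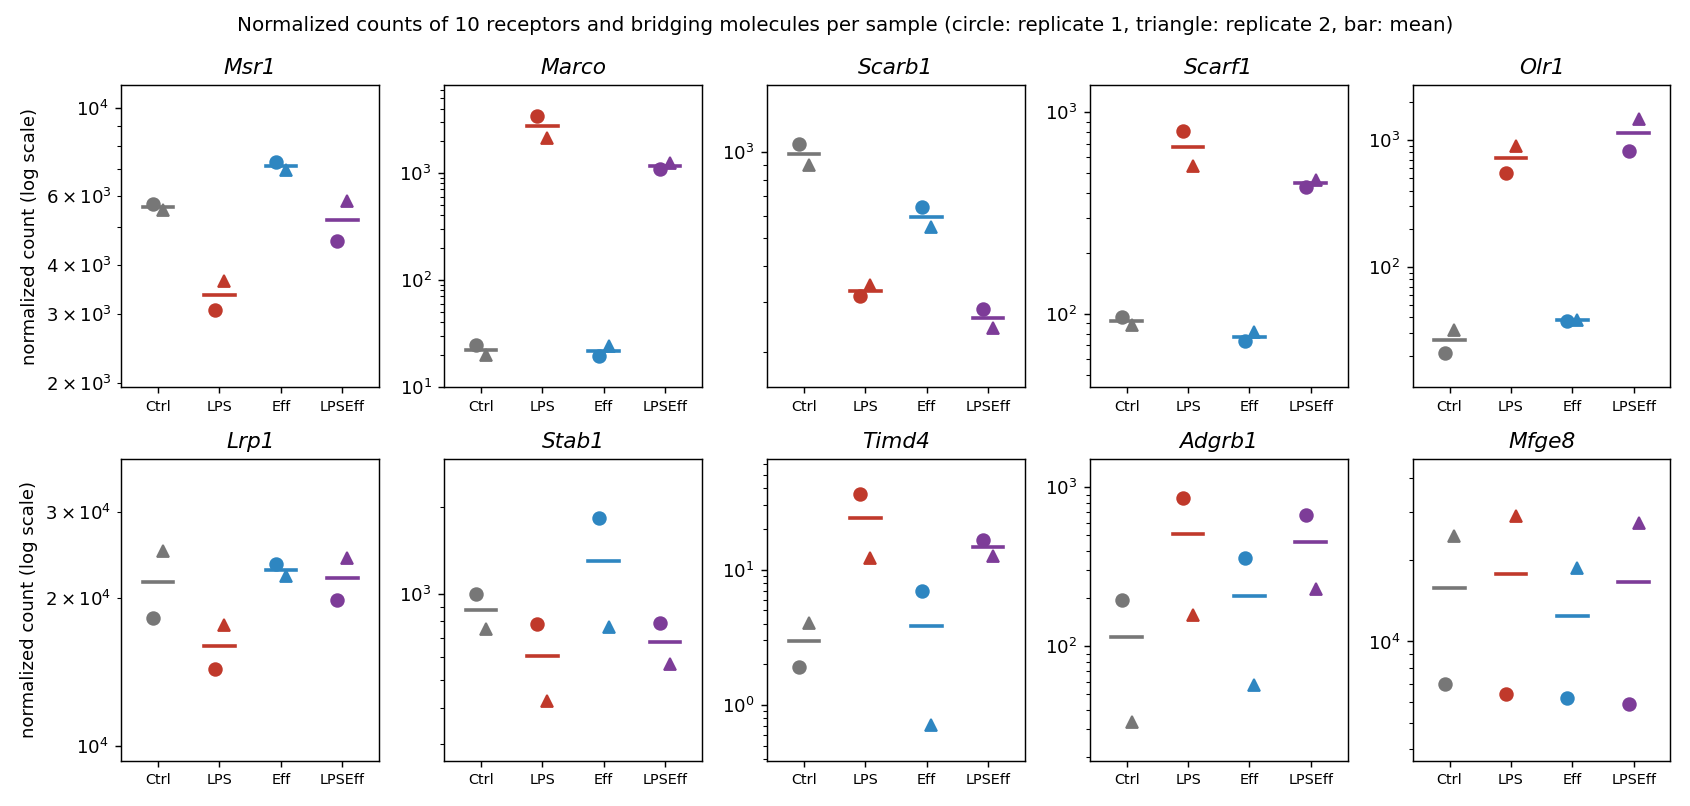
Normalized count (log scale, each panel with its own range) of each of the 10 genes in the 8 samples, by group; circles are replicate 1, triangles replicate 2 and bars the mean of both. Marco, Scarf1 and Olr1 stand higher in both stimulated groups and Scarb1 lower, while circles and triangles of Mfge8 and Adgrb1 lie apart in every group.

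Marco (ENSMUSG00000026390, chr1:120402267-120432753 on GRCm39, minus strand), a collagen-like class A scavenger receptor that binds bacteria and particles, had the largest difference of the 10 genes. Its normalized counts were 24.8 and 19.7 in Ctrl, 3424 and 2116 in LPS, 19.3 and 24.0 in Eff and lastly 1079.9 and 1241 in LPSEff. Every stimulated sample was far above every unstimulated one, and both LPSEff samples lay below both LPS samples. Marco was 117-fold higher in LPS than in Ctrl (log2 fold change 6.87, SE 0.28, adjusted p = 9.5e-06) and 51.5-fold higher in LPSEff than in Eff (5.69, SE 0.28, adjusted p = 1.54e-05).

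Olr1 (ENSMUSG00000030162, chr6:129462207-129484128, minus strand) encodes LOX-1, a C-type lectin-like receptor for oxidized LDL. It was measured at 20.9 and 31.8 normalized counts in Ctrl, 554 and 902 in LPS, 37.7 and 38.1 in Eff and lastly 814 and 1468 in LPSEff. Stimulated and unstimulated samples did not overlap, and the highest level was in LPSEff 2. The gene was 26.4-fold higher with LPS/IFNγ in naïve Mϕ (log2 fold change 4.72, SE 0.36, adjusted p = 0.000109) and 28.1-fold higher in efferocytic Mϕ (4.81, SE 0.36, adjusted p = 8.65e-05).

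Scarf1 (ENSMUSG00000038188, chr11:75404322-75418875, plus strand) encodes a class F scavenger receptor that binds modified LDL and, through C1q, apoptotic cells. It stood at 97.1 and 88.5 normalized counts in Ctrl, 808 and 544 in LPS, 73.6 and 81.2 in Eff and lastly 429 and 463 in LPSEff. Again no stimulated sample reached down to an unstimulated one. The rise was 7.09-fold in naïve Mϕ (log2 fold change 2.83, SE 0.23, adjusted p = 0.000155) and 5.71-fold in efferocytic Mϕ (2.51, SE 0.23, adjusted p = 0.000258).

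Scarb1 (ENSMUSG00000037936, chr5:125353547-125418176, minus strand) encodes SR-B1, the HDL receptor, which moves cholesterol between cells and lipoproteins and also binds phosphatidylserine. Its normalized counts were 1063 and 899 in Ctrl, 313 and 342 in LPS, 641 and 546 in Eff and lastly 282 and 244 in LPSEff. The groups did not overlap in any of the 4 comparisons, with Ctrl highest, Eff next and LPSEff lowest. LPS/IFNγ went with a level 2.98-fold lower in naïve Mϕ (log2 fold change -1.58, SE 0.19, adjusted p = 0.000936) and 2.25-fold lower in efferocytic Mϕ (-1.17, SE 0.19, adjusted p = 0.00414). The annotation holds 2 further genes on the same strand within Scarb1, Gm42633 and Gm74220, and reads that fall on both are uncertain.

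The promoter sequences of these 4 genes are shown because they are the members called in both comparisons with LPS/IFNγ. Each run holds the 250 bases before the annotated start of the canonical transcript on GRCm39 (the reference assembly, GENCODE annotation), written 5′ to 3′ on the strand of the gene. Capitals mark a match to 1 of 5 short patterns that were searched on both strands from 250 bases before to 50 after the start.
Marco, upstream 250 bases, chr1:120432754-120433003, minus strand: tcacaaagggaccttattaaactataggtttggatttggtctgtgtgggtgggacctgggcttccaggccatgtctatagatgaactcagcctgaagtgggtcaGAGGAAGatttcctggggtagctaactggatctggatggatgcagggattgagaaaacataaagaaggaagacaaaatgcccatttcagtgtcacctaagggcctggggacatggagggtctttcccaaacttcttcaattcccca
Scarf1, upstream 250 bases, chr11:75404072-75404321, plus strand: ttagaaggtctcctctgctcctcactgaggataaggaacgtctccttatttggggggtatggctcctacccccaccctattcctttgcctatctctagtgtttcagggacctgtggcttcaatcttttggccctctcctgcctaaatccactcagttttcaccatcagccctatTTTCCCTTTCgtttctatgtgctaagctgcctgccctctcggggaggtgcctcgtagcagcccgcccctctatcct
Olr1, upstream 250 bases, chr6:129484129-129484378, minus strand: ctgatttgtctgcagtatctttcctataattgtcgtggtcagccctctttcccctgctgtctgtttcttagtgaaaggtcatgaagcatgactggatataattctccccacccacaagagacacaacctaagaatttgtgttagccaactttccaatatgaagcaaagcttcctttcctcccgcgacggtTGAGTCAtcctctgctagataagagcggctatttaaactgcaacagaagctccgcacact
Scarb1, upstream 250 bases, chr5:125418177-125418426, minus strand: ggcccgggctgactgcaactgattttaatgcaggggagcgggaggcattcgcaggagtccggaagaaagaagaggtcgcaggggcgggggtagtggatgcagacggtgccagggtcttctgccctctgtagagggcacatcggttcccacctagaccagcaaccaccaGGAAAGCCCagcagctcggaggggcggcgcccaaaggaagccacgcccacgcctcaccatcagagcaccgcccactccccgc
In Marco the capitals mark GAGGAAG, a PU.1-like pattern, on the strand of the gene, with its first base 146 bases before the start. In Scarf1 they mark an ISRE-like pattern (GAAA, any pair of bases, GAAA) on the opposite strand at 76 bases before the start. Scarf1 also held GAGGAAG on both strands after the start, outside the printed run, and each printed run held 1 match. In Olr1 they mark TGANTCA, the AP-1 pattern, at 60 bases before the start, and in Scarb1 GGGNNTTCC, an NF-κB-like pattern, on the opposite strand at 82 bases before the start. The same search window, from 250 bases before to 50 after the start, was taken from 21757 protein-coding promoters. Of these, GAGGAAG was found in 13.2%, the ISRE-like pattern in 3.84%, TGANTCA in 7.15% and GGGNNTTCC in 6.25%. The fifth pattern, TTCNNNGAA (GAS, in 8.82% of promoters), was found among the members in Msr1 and Lrp1 and in none of the 4 promoters shown. Matches of this kind describe the sequence and no binding was measured.

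Msr1 (ENSMUSG00000025044, chr8:40034726-40095714, minus strand) encodes SR-A, the class A receptor for acetylated LDL and bacterial products. It was among the most abundant members, with 5697 and 5525 normalized counts in Ctrl, 3060 and 3627 in LPS, 7319 and 6972 in Eff and lastly 4597 and 5821 in LPSEff. In naïve Mϕ it was 1.68-fold lower with LPS/IFNγ (log2 fold change -0.75, SE 0.20, adjusted p = 0.0278), with no overlap between both groups. This call was lost when Ctrl 1, Ctrl 2, LPS 1, Eff 1 or Eff 2 was left out (adjusted p = 0.12, 0.102, 0.124, 0.0516 and 0.0519 with limma). In efferocytic Mϕ the difference was -0.47 on the log2 scale (95% interval -0.92 to -0.01, adjusted p = 0.146 with limma), and Msr1 passed the threshold there with the replicate number as a block (adjusted p = 0.0356). Msr1 and Marco, both collagen-like class A receptors, were thus called in opposite directions in naïve Mϕ.

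Lrp1 (ENSMUSG00000040249, chr10:127374012-127457017, minus strand), a giant endocytic receptor of the LDL receptor family that also takes part in apoptotic cell uptake with calreticulin, did not pass the threshold. It had 18221 and 24996 normalized counts in Ctrl, 14347 and 17663 in LPS, 23476 and 22227 in Eff and lastly 19792 and 24121 in LPSEff. Both LPS samples lay below both Ctrl samples, whereas LPSEff and Eff overlapped. The log2 fold change was -0.42 in naïve Mϕ (95% interval -1.01 to 0.16, adjusted p = 0.281 with limma) and -0.06 in efferocytic Mϕ (-0.65 to 0.52, adjusted p = 0.899). Its call depended on the scaling of the samples: Lrp1 was called lower in LPS than in Ctrl after quantile normalization (-1.33, adjusted p = 0.00467 with limma) or after rescaling to equal totals (-0.82, adjusted p = 0.0239). With equal totals, the median over all genes became -0.40 in LPS vs Ctrl and -0.44 in LPSEff vs Eff, and of the called genes 24.8% and 21.8% were higher, in place of 51.5% and 54.6%.

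**Figure D2:**
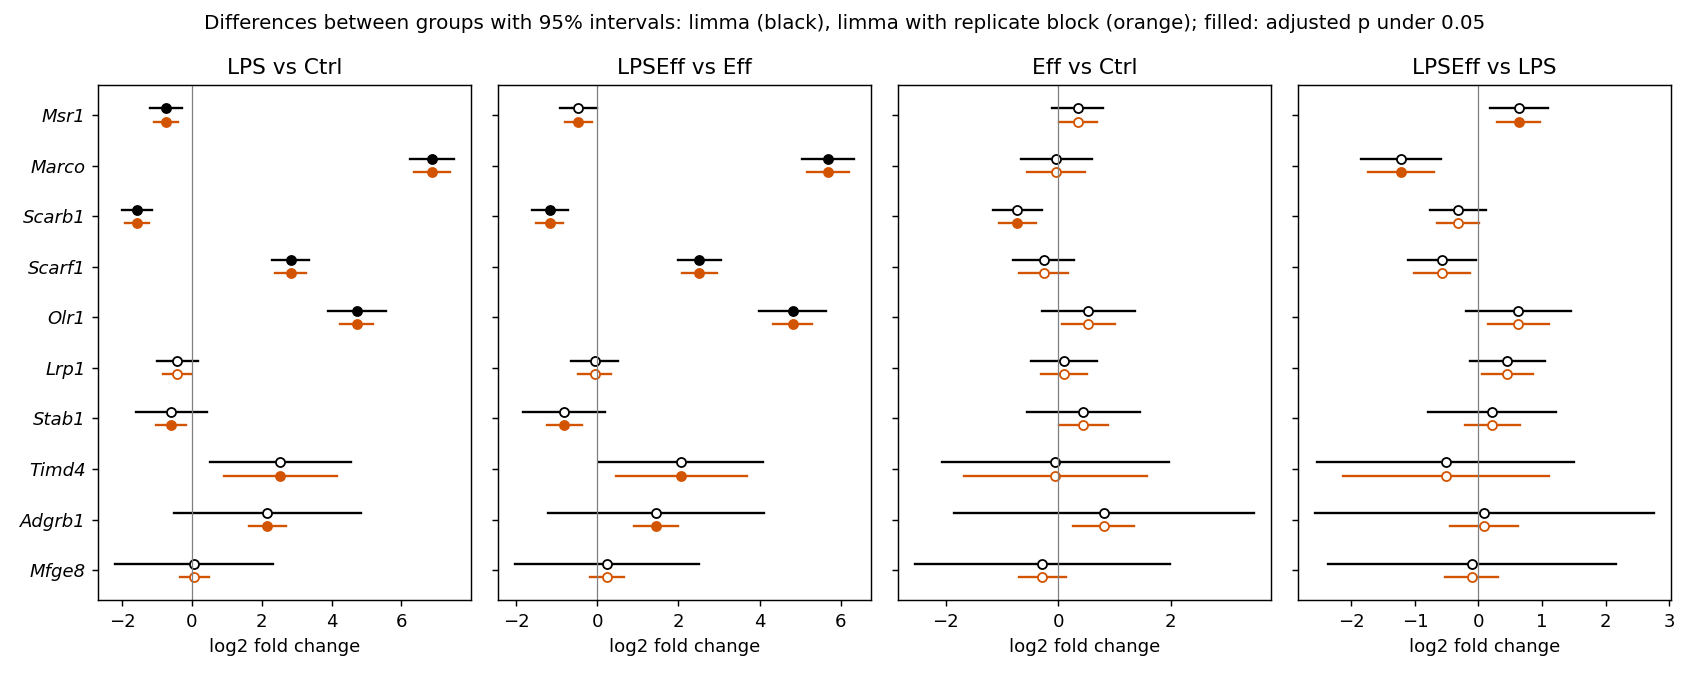
Log2 fold change (points) with 95% interval (lines) of each gene in the 4 comparisons, from limma without (black) and with (orange) the replicate number as a block; filled points have an adjusted p under 0.05. Marco, Olr1 and Scarf1 are filled to the right and Scarb1 to the left in both LPS/IFNγ comparisons, and for Mfge8 and Adgrb1 the black interval is several times as wide as the orange one.

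Among the phosphatidylserine receptors, none was called with LPS/IFNγ by limma without the replicate block, and all 3 were called in both comparisons with it. With the block, 8 of 10 members were called in each, 5 higher and 3 lower, against 41.2% of all tested genes in LPS vs Ctrl (20.5% higher and 20.7% lower) and 37% in LPSEff vs Eff (19% higher and 18% lower). The members added were Stab1, Timd4 and Adgrb1 and, in efferocytic Mϕ, Msr1. Timd4 had passed the filter on low values only through its stimulated samples, so its calls are not independent of that filter.

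Adgrb1 (ENSMUSG00000034730, chr15:74388044-74461314, plus strand) encodes BAI1, an adhesion GPCR that binds phosphatidylserine and signals to the engulfment machinery through ELMO and DOCK proteins. Its normalized counts were 196 and 33.5 in Ctrl, 859 and 157 in LPS, 358 and 57.2 in Eff and lastly 671 and 228 in LPSEff. A microRNA gene, Gm54686, lies within it on the same strand. The groups overlapped, but within each replicate number the stimulated sample was higher. In naïve Mϕ the log2 differences were 2.12 between the samples numbered 1 and 2.20 between those numbered 2, and in efferocytic Mϕ 0.90 and 1.98. The log2 fold change of 2.16 in LPS vs Ctrl missed the threshold without the block (adjusted p = 0.226 with limma) and passed it with the block (4.93e-05), as did that of 1.44 in LPSEff vs Eff (0.448 and 0.000901).

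Timd4 (ENSMUSG00000055546, chr11:46701620-46735177, plus strand) encodes TIM-4, a phosphatidylserine receptor known from resident Mϕ. It was scarce in all samples, with 1.90 and 4.05 normalized counts in Ctrl, 36.2 and 12.2 in LPS, 7.01 and 0.706 in Eff and lastly 16.6 and 12.7 in LPSEff. These values rested on 1 and 7 reads in Ctrl, 28 and 12 in LPS, 8 and 1 in Eff and lastly 21 and 10 in LPSEff. All stimulated samples were above all unstimulated ones. Timd4 was tested only because the stimulated samples lifted its mean past the filter. This order and the p-values that follow are therefore not independent support for a rise. The difference in LPS vs Ctrl was 2.53 on the log2 scale (SE 0.88, adjusted p = 0.0733 with limma, 0.0177 with the block) and that in LPSEff vs Eff was 2.07 (SE 0.88, adjusted p = 0.145 and 0.0472). At such counts the fitted fold change depends on the pseudocount, and it was 1.75 in LPS vs Ctrl with a pseudocount of 5 (adjusted p = 0.0498 with limma). Leaving out Eff 2 gave an adjusted p of 0.0417 for Timd4 in LPS vs Ctrl, and DESeq2 on recovered reads gave 0.0462.

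Stab1 (ENSMUSG00000042286, chr14:30860970-30890598, minus strand) encodes stabilin-1, a large scavenger and phosphatidylserine receptor of alternatively activated Mϕ and sinusoidal endothelium. It had 998 and 752 normalized counts in Ctrl, 786 and 422 in LPS, 1824 and 767 in Eff and lastly 792 and 569 in LPSEff. The highest value, in Eff 1, was 2.38-fold that of Eff 2, and the groups overlapped in every comparison. The log2 fold change was -0.59 in LPS vs Ctrl (adjusted p = 0.389 with limma, 0.0327 with the block) and -0.82 in LPSEff vs Eff (adjusted p = 0.244 and 0.00719). Nt5dc2 overlaps Stab1 on the opposite strand.

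Mfge8 (ENSMUSG00000030605, chr7:78783515-78798825, minus strand) encodes the secreted protein lactadherin, which binds phosphatidylserine with its discoidin domains and integrins with an RGD motif. Its normalized counts were 6990.2 and 24443 in Ctrl, 6418 and 29047 in LPS, 6211 and 18635 in Eff and lastly 5897 and 27225 in LPSEff. The samples numbered 1 held a narrow range of low values and those numbered 2 a range of high ones, whatever the treatment. No difference between groups passed the threshold. In LPS vs Ctrl the log2 fold change was 0.06 (95% interval -2.20 to 2.33 with limma, -0.35 to 0.48 with the block), and in LPSEff vs Eff it was 0.24 (-2.03 to 2.50, and -0.18 to 0.65 with the block). The sign of both turned after quantile normalization (-0.80 and -0.68) and after rescaling to equal totals (-0.34 and -0.21).

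The samples numbered 1 and 2 lay far apart in every group for Mfge8 and Adgrb1. This was looked at after their values had been seen. The sample numbered 2 was above that numbered 1 for Mfge8 by 3.50-fold in Ctrl, 4.53-fold in LPS, 3.0-fold in Eff and 4.62-fold in LPSEff. For Adgrb1 the order was the opposite, with the sample numbered 1 higher by 5.85-fold, 5.46-fold, 6.27-fold and 2.94-fold in the same order of groups. In the limma fit with the block, the difference of replicate 2 from replicate 1 was 1.94 on the log2 scale for Mfge8 (SE 0.13, adjusted p = 2.45e-05) and -2.28 for Adgrb1 (SE 0.17, adjusted p = 4.85e-05). Such differences were common, with 23.5% of all tested genes past the threshold, but 1.12% of genes had a larger one than Mfge8 and 0.65% a larger one than Adgrb1. Stab1 (-0.76, adjusted p = 0.00453) and Olr1 (0.54, adjusted p = 0.0288) also passed in this fit, and the other 6 members did not. What the numbers 1 and 2 stand for is not given in the sources used here.

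**Figure D3:**
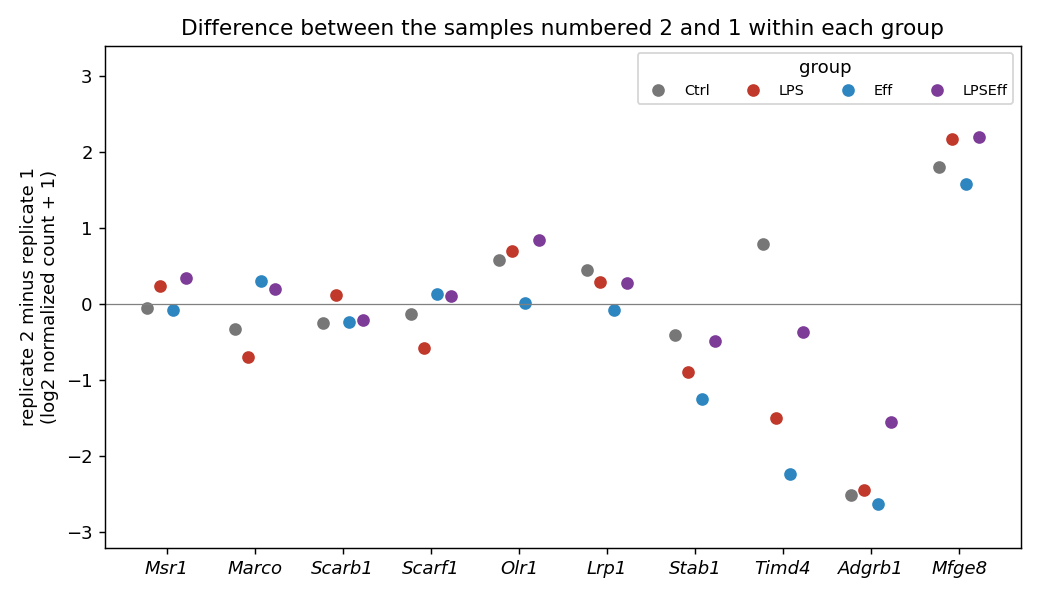
Difference between the samples numbered 2 and 1 of each group, as log2(normalized count + 1), for each gene; each point is a group. The 4 points of Mfge8 lie together above 0 and the 4 of Adgrb1 together below it.

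Efferocytosis alone left no member past the threshold in limma without the replicate block and Scarb1 past it with the block. In Eff vs Ctrl 0 of 10 members were called by limma, against 0.251% of all tested genes. At an unadjusted p under 0.05 the count was 1 by limma, 1 by edgeR and 1 by DESeq2, Scarb1 in each case. The shares of all tested genes were 6.13%, 6.43% and 5.52%. With the block the count was 5 by limma (Stab1, Msr1, Scarb1, Olr1 and Adgrb1) and 4 by edgeR. The share of all tested genes was 14.6% in both fits. This comparison shares its samples with those above, Ctrl with LPS vs Ctrl and Eff with LPSEff vs Eff. The log2 fold change of Scarb1 was -0.72 (SE 0.19, limma adjusted p = 0.352), a level 1.65-fold lower in Eff, and its differences within the replicate numbers were -0.73 and -0.72. With the replicate block it was called lower (adjusted p = 0.0298 with limma), the only such member, against 2.67% of all tested genes called in this fit and 0.975% called lower. Msr1 had a log2 difference of 0.35 (95% interval -0.11 to 0.80) with both Eff samples above both Ctrl samples, and Olr1 one of 0.54 (-0.29 to 1.36), also without overlap. For Marco the difference was -0.04 (-0.67 to 0.60). Adgrb1 had the largest difference of the members, 0.81 (-1.86 to 3.48), with 0.87 and 0.75 within the replicate numbers. It was not called with the block either (adjusted p = 0.13 with limma). The samples did not overlap for 4 members, against 34.1% of all tested genes. In the same comparison 7 of 22 tested fibroblast markers were called higher by limma, with a median log2 fold change of 3.35. With the block 15 of 22 were called higher.

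Under LPS/IFNγ, Mϕ fed with apoptotic cells beforehand had lower Marco and higher Msr1 values than naïve Mϕ in both replicate numbers. These differences were called only with the replicate number as a block or, for Marco, with DESeq2. In LPSEff vs LPS no member was called by limma, against 0.773% of all tested genes. An unadjusted p under 0.05 was found for 3 by limma, by edgeR and by DESeq2, against 10.3%, 11.2% and 9.1% of all tested genes. With the block, 5 had such a p by limma and 6 by edgeR, against 21.4% and 22.2% of all tested genes. The log2 fold change of Marco was -1.22 (SE 0.28, limma adjusted p = 0.126), 2.32-fold lower, with differences of -1.66 and -0.77 within the replicate numbers. Its adjusted p was 0.0138 with the block (limma) and 0.00278 with DESeq2, and over all alternatives it ranged from 0.00278 to 0.565. For Msr1 the log2 fold change was 0.63 (SE 0.20, adjusted p = 0.274, or 0.035 with the block by limma), 1.55-fold higher, with 0.59 and 0.68 within the replicate numbers. With the block, Marco and Msr1 made up 2 of 10 members called, 1 higher and 1 lower, against 6.97% of all tested genes (4.32% higher and 2.65% lower). Scarf1 (-0.57, 95% interval -1.11 to -0.04, adjusted p = 0.447 with limma) and Olr1 (0.63, -0.20 to 1.46, adjusted p = 0.634) missed the threshold. So did Lrp1 (0.46, -0.13 to 1.04, adjusted p = 0.62 with limma) and Scarb1 (-0.32, -0.76 to 0.12, adjusted p = 0.654). As for Marco and Msr1, the sign was the same in both replicate numbers for Scarf1, Olr1, Lrp1, Scarb1, Mfge8 and Stab1 (0.01 and 0.43 for Stab1). It differed for Timd4 and Adgrb1. The share of all tested genes with the same sign was not computed. Olr1 was called in an edgeR fit with the block (adjusted p = 0.0388). Samples did not overlap for 5 members, against 36.3% of all tested genes. In this comparison 9 of 22 tested fibroblast markers were called higher by limma, with a median log2 fold change of 3.77. With the block 14 of 22 were called higher. Of 4 tested dendritic cell markers, with a median of -0.81, none was called by limma and 2 were called lower with the block. Their list summed to 8292 and 16025 normalized counts in LPS and to 6688 and 6483 in LPSEff. Most of these sums was Ccr7, at 7649 and 14409 in LPS and 6243 and 5720 in LPSEff. The part of either cell type in the values of Marco and Msr1 was not tested.

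Whether LPS/IFNγ acted on these genes to a different extent in naïve and efferocytic Mϕ was tested with an interaction term. No member and no gene was called by limma (0% of all tested genes), and the same held for edgeR and DESeq2. Of all tested genes, 311 (1.91%) had an unadjusted p under 0.05 by limma, 369 (2.26%) by edgeR and 244 (1.5%) by DESeq2. With the block there were 1052 (6.45%) by limma and 1105 (6.78%) by edgeR, again with no call. Of the members, Marco alone had such a p by limma (difference of both effects -1.18 on the log2 scale, SE 0.39, adjusted p = 1 with limma), and again by edgeR, by DESeq2 and by limma with the block. In edgeR with the block Adgrb1 joined it. For Scarf1 the difference was -0.31 (95% interval -1.07 to 0.45), for Olr1 0.09 (-1.08 to 1.26) and for Scarb1 0.40 (-0.22 to 1.02).

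Compared per length of exon, which is needed to set genes side by side, Mfge8, Lrp1 and Msr1 led in unstimulated Mϕ. The level per kb was 3300.5 normalized counts for Mfge8, 1054 for Lrp1 and 884 for Msr1 in Ctrl, followed by Scarb1 with 94.8, Stab1 with 85.1, Scarf1 with 21.1, Adgrb1 with 13.1, Marco with 11.5, Olr1 with 6.57 and Timd4 with 0.751. The ranges of both samples overlapped between the neighbours Lrp1 and Msr1, Scarb1 and Stab1, Scarf1 and Adgrb1, and Adgrb1 and Marco. In LPS, Marco came next after Mfge8 with 1439 normalized counts per kb, overlapping it (3724), and stood above Lrp1 (781) and Msr1 (527). Olr1 (181) and Scarf1 (154) overlapped each other, Stab1 (58.7), Adgrb1 (58.0) and Scarb1 (31.7) followed with overlapping neighbours, and Timd4 remained last (6.11). The order in Eff was Mfge8 (2609 per kb), Msr1 (1126), Lrp1 (1115), Stab1 (126), Scarb1 (57.4), Adgrb1 (23.7), Scarf1 (17.6), Marco (11.2), Olr1 (9.44) and Timd4 (0.974), with overlap between Msr1 and Lrp1 and between Adgrb1 and Scarf1. In LPSEff, Marco (603 per kb) came after Mfge8 (3478), Lrp1 (1071) and Msr1 (821), and the 4 did not overlap as neighbours. Olr1 (284), Scarf1 (101), Stab1 (66.1), Adgrb1 (51.4), Scarb1 (25.4) and Timd4 (3.70) came after them, and overlap was seen between Stab1 and Adgrb1 and between Adgrb1 and Scarb1. Mfge8 and Lrp1 together held 67.8% to 87.1% of the summed normalized counts of the 10 genes. This share is of counts not divided by exon length, which was 20.5 kb for Lrp1, 4.76 kb for Mfge8 and 1.925 kb for Marco. It therefore does not compare transcript levels.

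**Figure D4:**
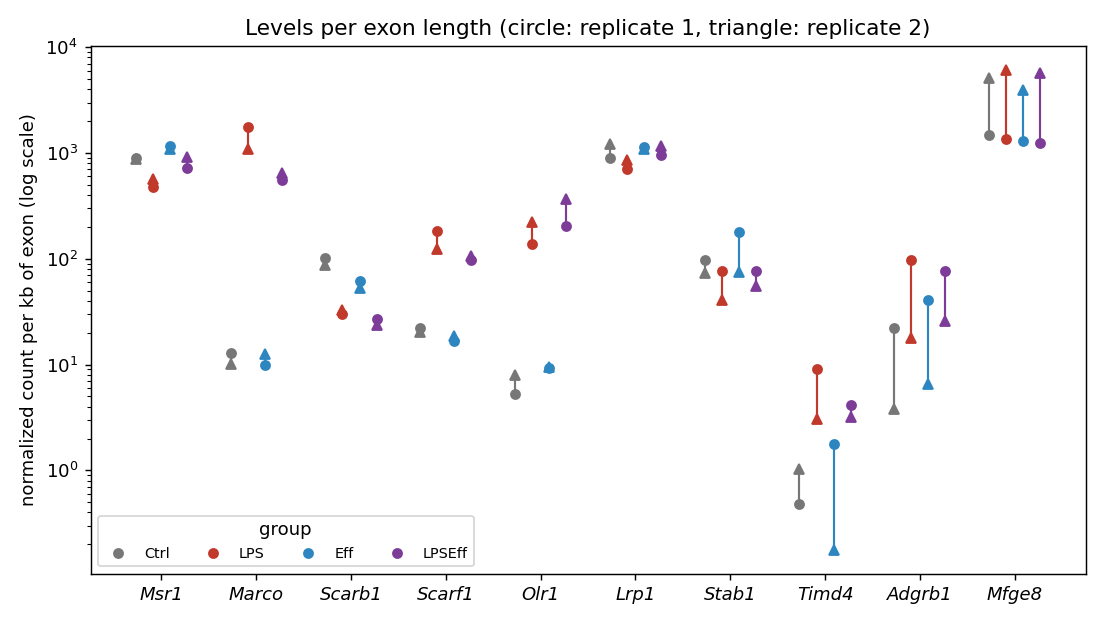
Normalized count per kb of exon (log scale) of each gene, with both samples of a group joined by a line. Marco averages 1439 in LPS, above Lrp1 and Msr1 of the same group, and 11.5 in Ctrl, and Timd4 is lowest in all 4 groups.

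The genes whose pattern over the 8 samples was most like that of a called member were named by Pearson's r of log2(normalized count + 1), as a description. Stimulated and unstimulated samples stood apart for Marco, Scarf1, Olr1 and Scarb1 but not for Msr1, and such a split alone gives a high r to many genes. An r over 0.95 was found for 751 tested genes with Marco, 667 with Scarf1, 626 with Olr1, 108 with Scarb1 and 68 with Msr1. Marco and Scarf1 were each other's closest gene (r = 0.997), followed by Gng4 and Rapgef2 for Marco and by Slc49a3 and Zhx2 for Scarf1. For Olr1 they were Gbp9 (r = 0.996), St3gal1 and Notch2, and for Scarb1 Tmem273 (r = 0.985), Nek9 and Pycard. For Msr1 the closest was Golt1b (r = 0.989), followed by Ugt1a10 and Ugt1a6b, which share exons with each other so that their counts are uncertain.

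Genes of the same biology outside the 10 moved in both directions with LPS/IFNγ. Of 8 tested other scavenger receptors, Cxcl16, which is both a chemokine and a receptor for oxidized LDL, was called higher in both comparisons (log2 fold change 2.96 and 3.70, adjusted p = 0.00026 and 7.77e-05 with limma), and Scarf2, a relative of Scarf1, was called higher in LPSEff than in LPS (3.90, adjusted p = 0.014). Of 21 tested other receptors and bridging molecules for apoptotic cells, 7 were called higher and 4 lower in LPS vs Ctrl, and 7 and 2 in LPSEff vs Eff. Over all tested genes, 12.4% were called higher and 11.6% lower in the first comparison, and 10.7% and 8.95% in the second, and the counts of the lists below stand beside the same shares. The largest rise in naïve Mϕ was that of Cd14 (log2 fold change 3.15), a co-receptor for LPS that also tethers apoptotic cells, and the largest fall that of Cd300lb (-4.28), an activating receptor that binds phosphatidylserine. The receptor tyrosine kinases Axl (1.42) and Mertk (1.89), which bind phosphatidylserine through bridging molecules, and Itgav (2.12), a subunit of integrins that bind lactadherin, were also called higher. In LPSEff vs LPS, Edil3, a secreted relative of Mfge8, was called higher (1.79, adjusted p = 0.0418 with limma), with 59.5 and 58.9 normalized counts in LPS and 162 and 264 in LPSEff. Without stimulation Edil3 stood at 45.7 and 51.5 in Ctrl and 119 and 156 in Eff, and Scarf2 at 24.8 and 17.3 in Ctrl and 53.5 and 76.9 in Eff. Both moved with the fibroblast markers, of which 9 of 22 were called higher in LPSEff vs LPS, and the part of fibroblast RNA in them was not tested. Of 16 tested genes of the LDL receptor family and partners of Lrp1, 4 were called higher and 3 lower in LPS vs Ctrl, with the largest rise in Mylip (1.35), a ubiquitin ligase for the LDL receptor. Of 12 tested engulfment adaptors, 3 were called higher and 2 lower in LPS vs Ctrl, led by the small GTPase Rhog (1.33) and by Elmo2 (-1.10), of the ELMO family. None of either list was called in Eff vs Ctrl or LPSEff vs LPS by limma without the block. With the block, 1 gene of the LDL receptor list was called lower in Eff vs Ctrl, against 0.975% of all tested genes. In LPSEff vs LPS, 2 of that list and 1 engulfment adaptor were called lower, against 2.65% of all tested genes.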

How the data were processed

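Total RNA of 8 samples was rRNA-depleted and sequenced. Per the labels and the methods of the study, the authors used cutadapt against adapters, Bowtie2 against leftover rRNA, STAR to align to mm39, and HTSeq (htseq-count, default mode) to count. Their versions and the annotation release are not given in the sources used here. The deposited signal is the normalized count, that is, reads of a gene over the size factor of its sample, which the authors compared with DESeq2. Gene names, positions, exon lengths and promoters were taken from GENCODE M39 on GRCm39, the same build, in which 54749 of the 55359 identifiers were found.

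Dividing by the smallest nonzero value of a sample gave whole reads for 100% of values (tolerance 0.01), 3481288 to 12020918 per sample. The main test was limma 3.58.1 (R 4.3.3, trend) on log2(normalized count + 1), restricted to 16309 genes averaging at least 10, all 4 groups in a single fit with 4 residual degrees of freedom, two-sided, Benjamini-Hochberg over all tested genes, called at an adjusted p under 0.05. Fold changes are on that scale and understate those of low genes. With 2 samples a group, the smallest exact permutation p is 0.333. On the recovered reads, edgeR 4.0.16 (quasi-likelihood, TMM) called 3991 genes in LPS vs Ctrl, 3509 in LPSEff vs Eff, 14 in Eff vs Ctrl, and under stimulation 126 in LPSEff vs LPS. In this order, DESeq2 1.42.0 called 3954, 3519, 204 and 368, and limma 3910, 3213, 41 and 126. Tested on simulated counts for LPS vs Ctrl (16042 genes), limma recovered 81 of 94 genes changed 4-fold and 23 of 95 changed 2-fold, with 7 false calls. The simulated counts had the same dispersion for every gene, few changed genes and no difference between replicate numbers. These figures check the fit and do not give its power or error rate on the real samples.

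The sample names carry the replicate numbers 1 and 2. Samples with the same number deviated together from their group means (r = 0.404 to 0.595 over the 6 pairs of groups), so values with the number as a block (3 residual degrees of freedom) are given where they change a call of a member. For the related lists they are given only in part. Samples of a group differed beyond sampling noise.

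The 10 genes and the related lists were chosen with earlier results of these data known. All 10 are named, with the called gene of largest rise and fall of each related list and up to 3 more, and the 3 genes most like each called member. A gene that this rule would name is not reported here. The edgeR fit with the block and the replicate difference were added after seeing the data. Protein sequences were not used here.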

Additional observations from a re-analysis of the deposited data

How the results depend on the processing

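With the replicate number as a block, the pairing gave 8 members called in LPS vs Ctrl, 8 in LPSEff vs Eff, 1 (Scarb1) in Eff vs Ctrl and 2 (Msr1 and Marco) in LPSEff vs LPS by limma, in place of 5, 4, 0 and 0, and 8, 8, 1 and 3 by edgeR with the block, which was added after seeing the data. That edgeR fit called 6663, 6314, 429 and 1233 of all 16309 tested genes in the same order. The block changed no other call of a member. DESeq2 called 1 member in LPSEff vs LPS, among 368 genes. Other alternatives kept these counts within 1.5 times, and leaving out each sample gave 4 to 5 members in LPS vs Ctrl and 4 in LPSEff vs Eff, with 0 elsewhere. Marco, Olr1, Scarf1 and Scarb1 kept direction and call in both LPS/IFNγ comparisons under every alternative run. Msr1 in LPS vs Ctrl lost its call with genes of a mean above 0 (adjusted p = 0.0557 with limma) and with only both groups in the fit (0.075). Rescaling to equal totals or quantile normalization called Msr1 lower in LPSEff vs Eff (-0.92 and -1.33), and quantile normalization also Lrp1 (-0.79).

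The sign of differences that were not called turned in these cases, and the cause was not tested. For Eff vs Ctrl, Timd4 came to 0.0668 with a pseudocount of 5, 0.14 with edgeR and 0.25 with DESeq2, Marco to 0.0157 with edgeR, 0.0242 with DESeq2 and 0.0011 with edgeR and the block, and Lrp1 to -0.0483 with quantile normalization. For LPSEff vs LPS, Adgrb1 came to -0.19 with edgeR and -0.21 with DESeq2. For Mfge8, quantile normalization gave -0.80 and equal totals -0.34 in LPS vs Ctrl, and -0.68 and -0.21 in LPSEff vs Eff. Leaving out 1 sample gave log2 ranges that cross 0. For Mfge8 they were -1.03 to 1.15 in LPS vs Ctrl, -0.87 to 1.34 in LPSEff vs Eff, -1.18 to 0.62 in Eff vs Ctrl, -1.21 to 1.00 in LPSEff vs LPS and -0.93 to 1.28 in the interaction. For Lrp1 they were -0.21 to 0.0785 in LPSEff vs Eff and -0.13 to 0.33 in Eff vs Ctrl. In Eff vs Ctrl they were -0.18 to 1.07 for Stab1, -1.17 to 1.06 for Timd4, -0.19 to 0.12 for Marco and -0.50 to 2.12 for Adgrb1. In LPSEff vs LPS they were -0.23 to 0.67 for Stab1, -1.26 to 0.24 for Timd4 and -1.13 to 1.31 for Adgrb1, and in the interaction -0.85 to 0.39 for Stab1, -1.58 to 0.65 for Timd4, -0.33 to 0.52 for Olr1 and -2.03 to 0.59 for Adgrb1. A minimum mean of 50 left Timd4 untested, and a fit of only 2 groups gives no interaction. Timd4, at 1 to 28 reads per sample, is the member most limited by depth.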
